A study of Mus musculus with 24 samples.

Results

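The genes of the autophagy machinery and its receptors were studied in MIN6 cells treated with verapamil. A symbol rule took 46 of the 12310 genes of the count table: the numbered Atg genes, the Map1lc3 and Gabarap genes, Ulk1 to Ulk4, Wipi1, Wipi2, Wdr45, Wdr45b, Vmp1, Ambra1, the genes of the PI3K complex (Becn1, Pik3c3, Pik3r4, Uvrag), Rb1cc1, the cargo receptors Sqstm1, Nbr1, Optn, Tax1bp1 and Calcoco1, and the mitophagy genes Bnip3, Bnip3l and Pink1. The rule used names and no measured values. All 46 genes passed the filter on low counts and were tested, together with 12306 genes in all.

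MIN6 is a mouse insulinoma line that is used as a model of the pancreatic β-cell, and here it is wild type in both groups. Verapamil blocks L-type calcium channels and is given to patients as a heart and blood pressure drug. RNA sequencing compared 12 libraries of cells kept with 50 µM verapamil for 24 h with 12 libraries of untreated cells (control), and the medium of both groups held 5.6 mM glucose. The study asked which genes change in treated cells, and its methods describe 4 sets of experiments with 3 replicates each. Since the 3 replicates of a set may not come from separate cultures, the p-values reflect only how far these libraries differ, and part of that may be technical. In a single cell line, fewer cells and less RNA per cell cannot be told apart in bulk libraries.

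Autophagy carries cytoplasm to the lysosome. A kinase complex around ULK1 and a lipid kinase complex around Beclin 1 start a membrane that WIPI proteins, ATG2 and ATG9A supply with lipid. A ubiquitin-like conjugation system then couples LC3 and GABARAP proteins to that membrane. Receptors such as p62, the product of Sqstm1, bind LC3 or GABARAP on one side and cargo on the other. In β-cells the pathway is known for removing damaged mitochondria, protein aggregates and insulin granules.

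Of the 46 genes, 22 rose with verapamil, 12 fell and 12 did not pass the test (edgeR, adjusted p under 0.05 over all genes tested). This is 47.83% of the autophagy genes higher, where 31.2% of all genes tested were called higher, and 26.09% lower, where 31.6% of all genes were called lower. The median log2 fold change was 0.14 over the 46 genes and -0.00 over all genes tested. Every LC3 and GABARAP gene and 7 of 8 genes of lipid transfer and membrane growth rose, together with Sqstm1. The genes that fell were spread over the kinase complexes, the conjugation system, the receptors and the mitophagy genes, and the deepest falls were in Rb1cc1 and Tax1bp1. The plot of fold changes by role gives all 46 genes.

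**Figure D1:**
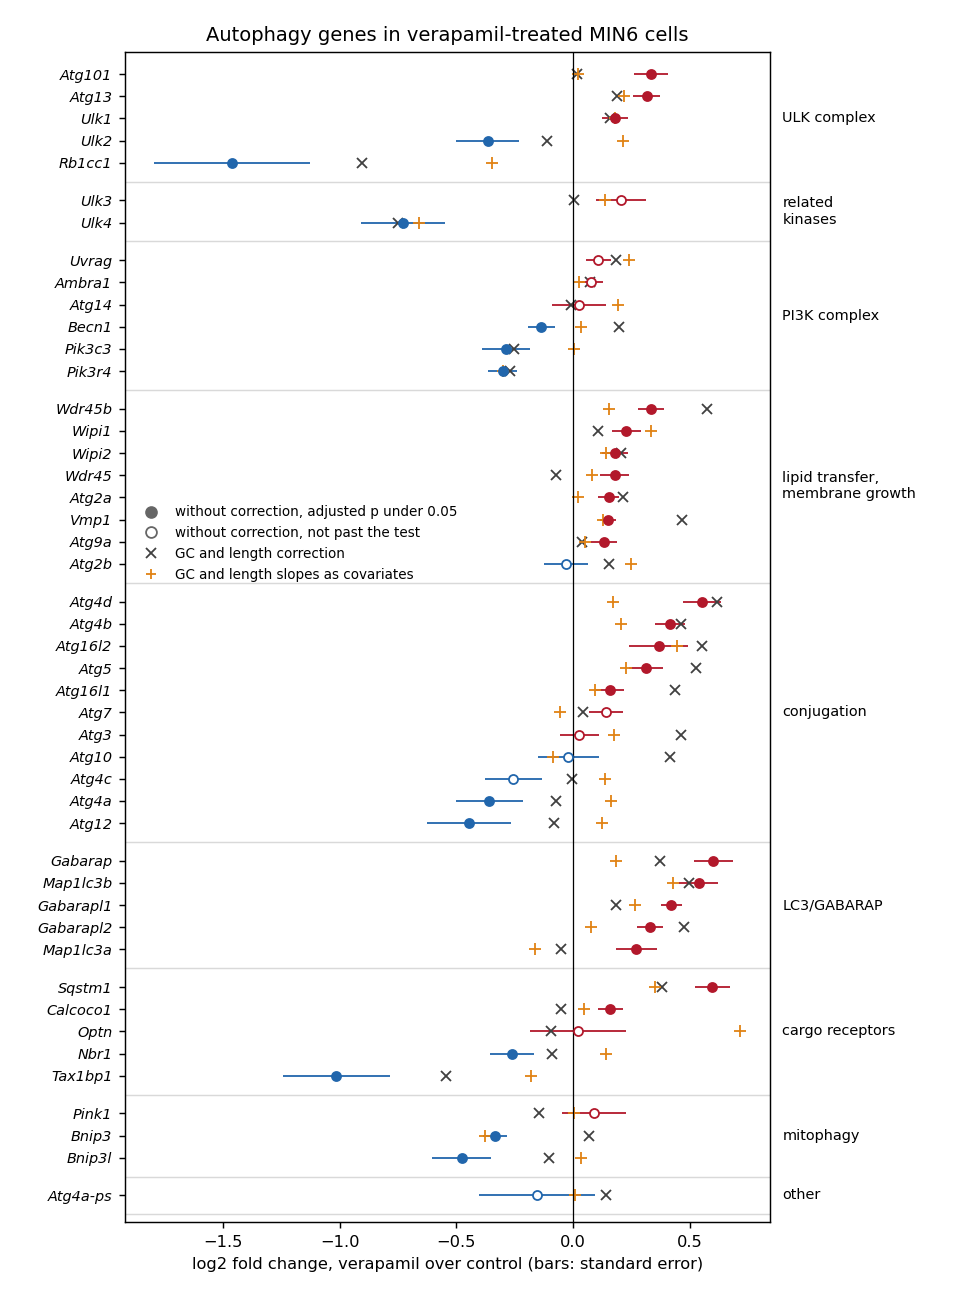
Log2 fold change (horizontal axis; verapamil over control, edgeR, 12 libraries per group) of the 46 autophagy genes, grouped by role. Circles with bars are the estimate and its standard error, filled where the adjusted p was under 0.05, in red above 0 and in blue below it. Crosses and plus signs give the estimate after 2 corrections for transcript GC content and length. All 5 LC3 and GABARAP genes lie above 0 without correction, and Rb1cc1 and Tax1bp1 lie lowest, at -1.46 and -1.01.

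The treated libraries were uneven, and this bears on many of the 46 genes. In the 6 verapamil libraries of sets 2 and 3, the difference of a gene from the control mean followed its GC content with a Pearson r across genes of 0.50 to 0.65. In the 6 verapamil libraries of sets 1 and 4, r was 0.04 to 0.37, and in the 12 control libraries it was -0.22 to 0.19. A library of set 4, V11, stood apart through transcript length, with r of -0.61 across genes against -0.41 to -0.06 in the other verapamil libraries. The biological coefficient of variation was 0.28 in verapamil and 0.10 in control. Total counts were 12590476 to 44806556 per library.

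Short, GC-rich transcripts stood higher and long, AT-rich transcripts lower in treated cells, over all genes and over the autophagy genes alike. The correlation of log2 fold change with GC content was 0.53 across the 46 genes and 0.48 across all genes, and that with log length was -0.31 and -0.38. These genes share their libraries, so no p is given. The 22 genes that rose had a median transcript length of 3153 bases and a median GC content of 52.5%, whereas the 12 that fell had 4497 bases and 44.6%. Their part in the results was not tested beyond the following comparisons. Each call was repeated with library offsets that remove the GC and length trend, with the library slopes as covariates, and with counts summed per experiment set (4 sums against 4). Of the 22 genes that rose, 12 rose in all 3 of these fits: Gabarap, Map1lc3b, Gabarapl1, Gabarapl2, Atg13, Ulk1, Sqstm1, Atg4d, Atg4b, Atg5, Wdr45b and Vmp1. Of the 12 genes that fell, only Pik3r4 and Ulk4 fell in all 3. The share of all genes that kept a call in all 3 was not counted, so these counts have no background to be read against.

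**Figure D2:**
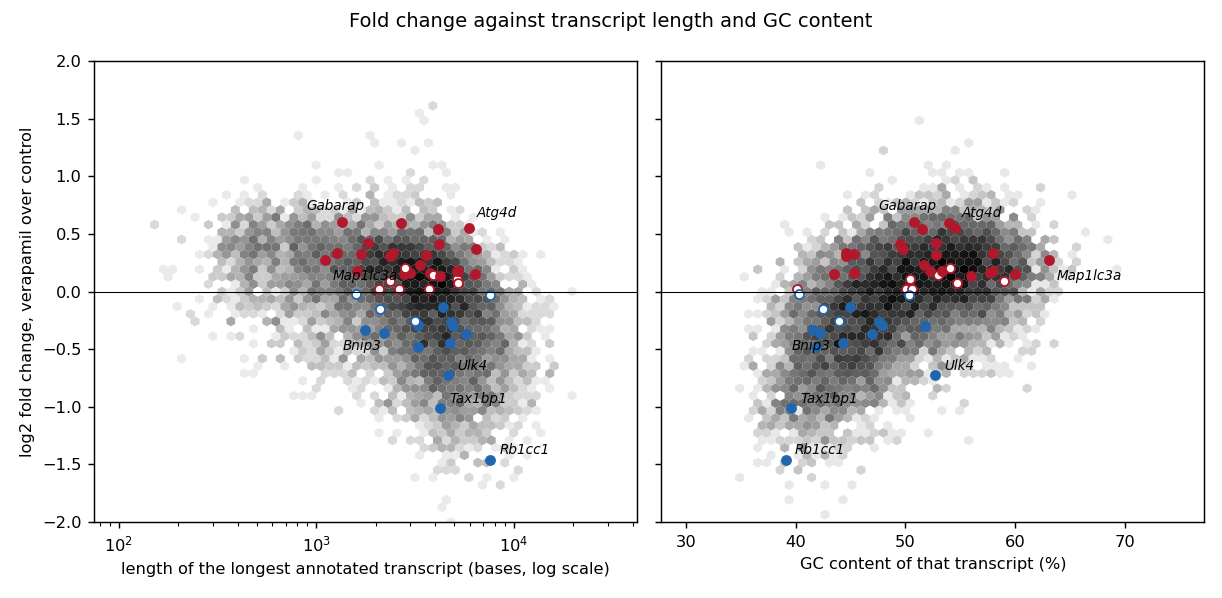
Log2 fold change of every gene tested (grey, darker where more genes lie) and of the 46 autophagy genes (circles, filled where the adjusted p was under 0.05), against the length of the longest annotated transcript (left, bases, log axis) and its GC content (right, %). Rb1cc1 and Tax1bp1, the autophagy genes with the lowest GC content, lie lowest, while Map1lc3a, with the highest, lies above 0.

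With the offsets 22 autophagy genes were called higher and 5 lower, where 28.8% and 28.2% of all genes were called. With the covariates the counts were 21 and 6, against 21.3% and 14.1% of all genes. With the sums they were 14 and 4, against 24.4% and 17.3%. Without the verapamil libraries of set 2, 16 rose and 6 fell, against 26.7% and 25.7% of all genes. Without those of set 3, 20 rose and 7 fell, against 26.9% and 26.5%. Over sets 1 and 4 alone 11 rose and 2 fell, where 13.4% and 12.0% of all genes were called. Leaving out V11 gave 24 and 12, against 31.4% and 32.3%.

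The LC3 and GABARAP proteins are the ubiquitin-like proteins that are coupled to the growing autophagosome and hold it to its cargo. All 5 of their genes rose, and none fell at an unadjusted p under 0.05 or by DESeq2, where 31.2% of all genes were called higher. With offsets 4 were higher and 0 lower, and with covariates 4 and 1. Gabarap, which codes for the protein that names the family, was the most abundant of the 46 genes per kilobase of transcript. Its level was 765 to 885 CPM in control (median 796.5) and 926 to 1614 CPM in verapamil (median 1238). Every treated library lay above every control library. The mean was 810.5 ± 39.2 CPM in control and 1230.0 ± 243 CPM in verapamil (SD, n = 12 each), and the log2 fold change was 0.60 (SE 0.08, edgeR adjusted p = 1.77e-06). With offsets it was 0.37 and with covariates 0.19, both past the test. The lowest treated values came from sets 1 and 4, and the highest from sets 2 and 3 and from V11.

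Gabarapl1 codes for GABARAPL1, also known as GEC1. Its level ran from 100 to 119.5 CPM in control (median 109) and from 126.5 to 163.5 CPM in verapamil (median 148), again without overlap. In edgeR the log2 fold change was 0.42 (SE 0.05, edgeR adjusted p = 4.28e-08). It was 0.18 with offsets, under which 8 of the 12 treated libraries lay above all controls, and 0.26 with covariates. Its log2 ratios within the 4 sets lay between 0.31 and 0.50, a narrower range than the 0.37 to 0.80 of Gabarap. Groups without overlap in this direction made up 4.95% of all genes tested, and among the 46 autophagy genes there were 4: Gabarap, Gabarapl1, Sqstm1 and Atg4d.

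Gabarapl2, which codes for GATE-16, ran from 253 to 285 CPM in control (median 266) and from 279 to 398 CPM in verapamil (median 338). The lowest treated library lay within the control range and the other 11 lay above it. Against control the log2 fold change was 0.33 (SE 0.05, edgeR adjusted p = 2.18e-05). With offsets it was 0.48 and with covariates 0.08 (adjusted p = 0.0409). The table also holds 3 processed pseudogenes that are 96.6% to 99.4% identical to Gabarapl2 over 349 to 352 aligned bases, so its reads could be split between them, and its level is uncertain to that extent.

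Map1lc3b codes for LC3B, the form that is most used to mark autophagosomes. It was the scarcest of the 5, at 8.55 to 15.8 CPM in control (median 11.8) and 14.3 to 19.6 CPM in verapamil (median 17.7), from 197 to 693 reads per library. Of the treated libraries 9 lay above all control libraries. On the log2 scale the change was 0.54 (SE 0.08, edgeR adjusted p = 8.58e-06), and both GC and length corrections left it at 0.43 to 0.50. Map1lc3b overlaps the protein-coding gene Gm20388 on the same strand and Zcchc14 on the opposite strand, and it has 2 near-identical pseudogenes in the table. Part of its reads may therefore be counted elsewhere, and its level is uncertain to that extent.

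Map1lc3a, which codes for LC3A, behaved differently over the sets. Its level was 88.5 to 98.4 CPM in control (median 92.5) and 85.3 to 154 CPM in verapamil (median 114.5), with 7 treated libraries above all controls and 3 below them. The log2 fold change was 0.27 (SE 0.09, edgeR adjusted p = 0.00887). The libraries above the controls were those of sets 2 and 3 and V11, and within set 1 the log2 ratio was -0.06. Of the 46 genes it had the highest GC content (63.1%) and the shortest transcript (1112 bases). With offsets its log2 fold change was -0.05 (adjusted p = 0.111) and with covariates it was -0.16 (adjusted p = 0.00182), so its direction turned. With 4 sums against 4 the adjusted p was 0.0549.

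The plot of levels by library shows these 5 genes beside 7 from other roles.

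**Figure D3:**
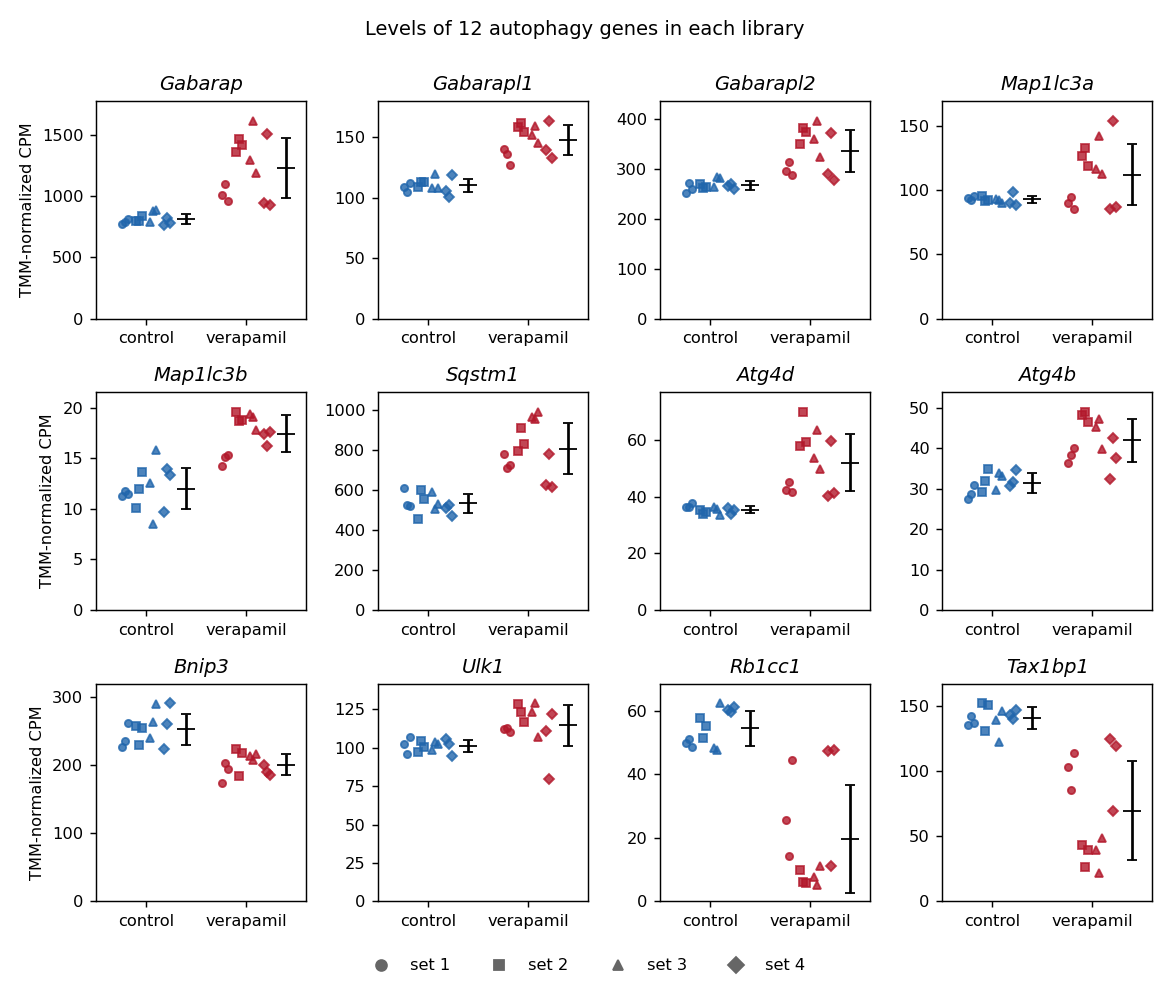
TMM-normalized CPM (vertical axes, from 0) of 12 autophagy genes in each of the 24 libraries, with control in blue and verapamil in red, and a different marker for each of the 4 experiment sets. Black bars give the mean and SD of the 12 libraries of a group. Gabarap, Gabarapl1, Sqstm1 and Atg4d show no overlap between the groups with verapamil higher, and Bnip3 shows none with verapamil lower.

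Sqstm1 codes for p62, a receptor that binds ubiquitin-tagged cargo and LC3. Its level was 453 to 611 CPM in control (median 525.5) and 616 to 991 CPM in verapamil (median 789), and the ranges did not meet. The means were 533.6 ± 48.9 and 807 ± 128 CPM (SD, n = 12 each), with a log2 fold change of 0.60 (SE 0.07, edgeR adjusted p = 4.66e-07). It was 0.38 with offsets and 0.35 with covariates, and the log2 ratio was positive in each set, from 0.42 in set 4 to 0.84 in set 3. Sqstm1 shares 583 bases with Mrnip, a gene on the opposite strand that is also in the table, and whether the counting used strand is not given in the sources.

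The promoters of 3 LC3 and GABARAP genes and of Sqstm1, whose product binds those proteins, are printed from RefSeq (GRCm38.p6). All 4 genes are among the 12 that rose in the 3 fits named above. In set 4 alone none of the 4 was called (edgeR adjusted p = 0.254 to 0.326). Each covers 250 bases before to 50 bases after the RefSeq transcript start and reads in the direction of the gene. The RefSeq starts lie 227, 32, 77 and 7 bases inside the GENCODE genes of Gabarap, Gabarapl1, Map1lc3b and Sqstm1. Most of the Gabarap window thus lies inside its GENCODE gene. Capitals mark a match to TGACNNNGC. The windows are chr11:69991120-69991419 (plus strand), chr6:129532942-129533241 (plus strand), chr8:121590188-121590487 (plus strand) and chr11:50210771-50211070 (minus strand).
Gabarap: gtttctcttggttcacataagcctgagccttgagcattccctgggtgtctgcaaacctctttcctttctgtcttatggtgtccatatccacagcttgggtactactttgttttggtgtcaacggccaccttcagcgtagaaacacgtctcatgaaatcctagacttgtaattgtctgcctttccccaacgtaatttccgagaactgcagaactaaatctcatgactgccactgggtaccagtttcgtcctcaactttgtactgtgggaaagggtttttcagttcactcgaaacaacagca
Gabarapl1: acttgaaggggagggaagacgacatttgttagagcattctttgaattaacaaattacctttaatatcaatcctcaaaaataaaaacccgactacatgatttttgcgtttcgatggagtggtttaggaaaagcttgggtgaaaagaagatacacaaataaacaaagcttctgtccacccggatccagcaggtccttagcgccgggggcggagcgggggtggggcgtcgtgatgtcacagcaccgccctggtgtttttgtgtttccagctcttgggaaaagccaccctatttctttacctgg
Map1lc3b: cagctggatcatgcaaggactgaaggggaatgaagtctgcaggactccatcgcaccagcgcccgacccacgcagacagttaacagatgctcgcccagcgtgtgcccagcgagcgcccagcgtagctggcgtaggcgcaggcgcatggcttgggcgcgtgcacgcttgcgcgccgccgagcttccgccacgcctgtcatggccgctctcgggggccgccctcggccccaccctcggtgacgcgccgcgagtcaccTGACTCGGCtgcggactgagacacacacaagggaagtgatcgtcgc
Sqstm1: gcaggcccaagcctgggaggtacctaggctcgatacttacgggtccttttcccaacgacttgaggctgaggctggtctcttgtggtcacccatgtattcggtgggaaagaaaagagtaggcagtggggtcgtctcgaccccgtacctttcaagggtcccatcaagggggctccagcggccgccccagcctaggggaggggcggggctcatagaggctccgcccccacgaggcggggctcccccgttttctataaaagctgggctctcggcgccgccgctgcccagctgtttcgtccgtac
Of these, only the Map1lc3b window holds a match, which lies after the RefSeq start. The GC content of the windows was 45.7%, 46.3%, 68.0% and 63.3% in the order printed. Promoters were found for 37 of the 46 genes (43 windows), and 3 motifs were searched on both strands. TGACNNNGC, named for NRF2, was in 7 of the 43 windows (16.3%), those of Atg13, Map1lc3b, Tax1bp1, Ulk2 and Vmp1, against 12.4% of all promoters. TCACGTGA, named for TFEB, was in 1 window (2.33%), that of Atg3, against 0.974%. TGATGNAA, named for ATF4, was in 0 of 43 windows, against 3.97%. A match is a run of letters and not a site in use. Both genes that rose and genes that fell hold one.

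Tax1bp1 codes for a receptor that binds ubiquitin and LC3, and it fell furthest of the 5 receptors. Its level was 122 to 152 CPM in control (median 141) and 21.8 to 124.5 CPM in verapamil (median 59.0). All but 1 of the treated libraries lay below every control. In edgeR the log2 fold change was -1.01 (SE 0.23, edgeR adjusted p = 0.000618), with -0.46 in set 1, -1.98 in set 2, -1.89 in set 3 and -0.46 in set 4. It was -0.54 with offsets and -0.18 with covariates (adjusted p = 0.0057), and with 4 sums against 4 the adjusted p was 0.054.

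Nbr1, a ubiquitin receptor related to p62, had 184 to 222 CPM in control (median 197) and 105.5 to 214 CPM in verapamil (median 153). In 7 treated libraries it lay below all controls. Against control the log2 fold change was -0.26 (SE 0.09, edgeR adjusted p = 0.0188), whereas it was -0.09 with offsets (adjusted p = 0.158), 0.14 with covariates (adjusted p = 0.00174) and 0.03 as the log2 ratio within set 1. Calcoco1, which codes for a relative of the receptor NDP52, rose from 76.9 ± 4.5 to 86.0 ± 9.4 CPM. Its control values were 71.4 to 85.6 CPM (median 76.2) and its treated values 74.7 to 102 CPM (median 85.5), so the groups overlapped. On the log2 scale the change was 0.16 (edgeR adjusted p = 0.0126), and it was -0.05 with offsets (adjusted p = 0.366) and 0.05 with covariates (adjusted p = 0.533). Optn, the gene for optineurin, a receptor known from mitophagy, stood at 2.55 ± 0.46 and 2.57 ± 1.29 CPM and was not called, but it was called higher with covariates (0.72, adjusted p = 0.00258).

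Per library, the log2 ratio of Sqstm1 to Nbr1 was 1.21 to 1.71 in control and 1.54 to 3.18 in verapamil, above all controls in 10 of 12 treated libraries. After the GC and length correction it was above all controls in 9.

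The ULK complex starts autophagy, and its 5 genes split: Atg101, Atg13 and Ulk1 rose, while Ulk2 and Rb1cc1 fell. Over all genes 31.2% were called higher and 31.6% lower. Rb1cc1 codes for FIP200, the scaffold that holds the complex together. Its level was 47.7 to 62.4 CPM in control (median 53.3) and 5.31 to 47.7 CPM in verapamil (median 11.2), from 118 to 2021 reads per library. In 11 treated libraries it lay below every control. The means were 54.5 ± 5.6 and 19.7 ± 17.1 CPM (SD, n = 12 each), with a log2 fold change of -1.46 (SE 0.33, edgeR adjusted p = 0.000661).

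The fall of Rb1cc1 was uneven over the sets. Its log2 ratio was -0.82 in set 1, -2.93 in set 2, -2.71 in set 3 and -0.77 in set 4. Rb1cc1 and Tax1bp1 had the lowest GC contents of the 46 genes (39.1% and 39.6%), and Rb1cc1 also the longest transcript (7607 bases). With offsets the log2 fold change was -0.90 and with covariates -0.35 (adjusted p = 0.0466), and with 4 sums against 4 the adjusted p was 0.0523. A test of the set by treatment interaction passed for Rb1cc1 (edgeR adjusted p = 0.0186) and Tax1bp1 (0.00507) and for no other of the 46 genes, where 9.72% of all genes passed.

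Atg13 codes for the subunit that binds ULK1 and FIP200. Its level was 50.2 to 59.6 CPM in control (median 54.0) and 52.6 to 79.6 CPM in verapamil (median 68.6), with 10 treated libraries above all controls. The log2 fold change was 0.32 (SE 0.06, edgeR adjusted p = 8.62e-05), and 0.19 with offsets and 0.22 with covariates. Atg101, which codes for the partner of ATG13, had 27.8 to 32.3 CPM in control (median 29.6) and 29.8 to 51.4 CPM in verapamil (median 38.7). Its log2 fold change was 0.33 (SE 0.07, edgeR adjusted p = 0.000355), but 0.02 with offsets (adjusted p = 0.699) and 0.02 with covariates.

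Ulk1, the gene for the kinase itself, had 94.4 to 107 CPM in control (median 102) and 79.7 to 129 CPM in verapamil (median 114.5). All treated libraries but V11 lay above the controls, and V11 lay below them. In edgeR the log2 fold change was 0.18 (SE 0.06, edgeR adjusted p = 0.00733), and both corrections gave 0.16 to 0.18. Ulk2, the gene for a related kinase, had 63.7 to 76.6 CPM in control (median 68.2) and 26.6 to 72.0 CPM in verapamil (median 55.1), with 8 treated libraries below all controls. Its log2 fold change was -0.36 (SE 0.13, edgeR adjusted p = 0.0215), and it was -0.11 with offsets (adjusted p = 0.206) and 0.21 with covariates (adjusted p = 0.0182). The log2 ratio of Ulk1 to Ulk2 lay above all controls in 10 of 12 treated libraries, and in 7 after the correction.

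Ulk4 codes for a related protein that lacks an active kinase, and Ulk3 for a kinase known from hedgehog signalling. Ulk4 was scarce, with 1.93 to 4.36 CPM in control (median 3.05) and 0.77 to 2.68 CPM in verapamil (median 1.94), from 20 to 140 reads per library. Its log2 fold change was -0.73 (SE 0.18, edgeR adjusted p = 0.00142). Ulk4 kept this value under offsets (-0.75) and covariates (-0.66), and it overlaps Ctnnb1 on the opposite strand. Ulk3 stood at 2.87 to 5.04 CPM in control (median 3.57) and 3.42 to 6.14 CPM in verapamil (median 4.02) and was not called.

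The PI3K complex makes the lipid that recruits the later machinery. Of its 6 genes 3 fell and 0 rose by edgeR and by DESeq2, with 1, Uvrag, higher at an unadjusted p under 0.05, where 31.6% of all genes were called lower. With offsets the count turned to 3 higher and 2 lower, and with covariates it was 1 and 1. Pik3r4 codes for VPS15, the regulatory subunit. Its level was 11.8 to 15.5 CPM in control (median 13.9) and 9.19 to 13.4 CPM in verapamil (median 11.3), and 8 treated libraries lay below all controls. Against control the log2 fold change was -0.30 (SE 0.06, edgeR adjusted p = 0.000236), with values of -0.41 to -0.22 in the 4 sets and of -0.30 to -0.27 under both corrections.

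Pik3c3 codes for VPS34, the catalytic subunit. It had 8.55 to 11.5 CPM in control (median 9.63) and 5.53 to 10.3 CPM in verapamil (median 8.23). On the log2 scale the change was -0.29 (SE 0.10, edgeR adjusted p = 0.0178), and with covariates it was 0.00 (adjusted p = 0.979). The adjusted p with 4 sums against 4 was 0.0783. Becn1, which codes for Beclin 1, had 118 to 137.5 CPM in control (median 129) and 90.0 to 132 CPM in verapamil (median 121). Its log2 fold change was -0.14 (SE 0.06, edgeR adjusted p = 0.0401), but 0.20 with offsets (adjusted p = 0.00134). Leaving out a single library ended the call of Becn1 in 13 of 24 cases, 5 of them verapamil libraries of sets 2 and 3, with adjusted p of 0.0512 to 0.07.

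Ambra1, the gene for a regulator of Beclin 1, was the most abundant of the group by CPM, at 225 to 244 CPM in control (median 235) and 188 to 288 CPM in verapamil (median 247). It was not called (log2 fold change 0.08, edgeR adjusted p = 0.181), and was called higher without V11 (0.10, adjusted p = 0.0217). Uvrag, a Beclin 1 partner, had a log2 fold change of 0.11 (edgeR adjusted p = 0.0697), and it was 0.19 with offsets and 0.24 with covariates, both past the test. Atg14, the gene of the subunit that directs the complex to autophagy, stood at 3.67 ± 0.48 and 3.72 ± 0.89 CPM.

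The genes of lipid transfer and membrane growth gave the second group with falls in none, at an adjusted p, at an unadjusted p under 0.05 and by DESeq2. Of the 8, 7 rose, where 31.2% of all genes were called higher. With either correction 5 of the 8 were called higher and 0 lower, Atg2b among the 5. All genes called higher were 28.8% with offsets and 21.3% with covariates. With 4 sums against 4, 3 of the 8 were called higher and 0 lower, where 24.4% of all genes were called higher. The WIPI family binds the lipid made by VPS34 and comprises Wipi1, Wipi2, Wdr45b and Wdr45. Wdr45b had 74.4 to 90.8 CPM in control (median 83.1) and 89.1 to 124 CPM in verapamil (median 103), with 11 treated libraries above all controls. The log2 fold change was 0.34 (SE 0.06, edgeR adjusted p = 2.38e-05). It was 0.58 with offsets, where its groups no longer overlapped, and 0.16 with covariates. The offsets of Wdr45b rest on a transcript of 2 exons, which may not be the one expressed.

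Wipi1 had 34.2 to 43.1 CPM in control (median 38.3) and 32.0 to 51.3 CPM in verapamil (median 46.5), with a log2 fold change of 0.23 (SE 0.06, edgeR adjusted p = 0.00328). With offsets its adjusted p was 0.142. Wipi2, which codes for the protein that brings ATG16L1 to the membrane, had 83.0 to 94.2 CPM in control (median 90.5) and 74.6 to 116 CPM in verapamil (median 103), with a log2 fold change of 0.18 (SE 0.05, edgeR adjusted p = 0.00626). Of its treated libraries 9 lay above all controls and 1, V11, below them, and with 4 sums against 4 the adjusted p was 0.0813. Wdr45, with 8.67 to 11.8 CPM in control (median 10.5) and 9.80 to 14.0 CPM in verapamil (median 11.5), had a log2 fold change of 0.18 (edgeR adjusted p = 0.0177), and it was -0.07 with offsets (adjusted p = 0.345) and 0.08 with covariates (adjusted p = 0.469). With 4 sums against 4 the edgeR adjusted p of Wdr45 was 0.0758.

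The other genes of this group moved by less. Atg2a codes for a protein that moves lipid from the endoplasmic reticulum into the growing membrane and rose by 0.15 on the log2 scale (86.6 ± 2.9 to 96.4 ± 8.9 CPM), whereas its relative Atg2b stood at 18.7 ± 1.0 and 18.3 ± 3.7 CPM and was not called. For Atg2a the call was lost with covariates (0.02, edgeR adjusted p = 0.708) and with 4 sums against 4 (adjusted p = 0.0854), whereas Atg2b was called higher with offsets (0.15) and with covariates (0.25). Vmp1, the gene of a scramblase of the endoplasmic reticulum, rose by 0.15 (75.2 ± 3.2 to 83.5 ± 3.8 CPM, edgeR adjusted p = 0.000717), with log2 ratios of 0.10 to 0.20 in the 4 sets, and by 0.47 with offsets. Atg9a, which codes for the scramblase on the vesicles that seed the membrane, rose by 0.13 (56.2 ± 2.7 to 61.6 ± 7.2 CPM, edgeR adjusted p = 0.0413). Its log2 ratio was -0.03 in set 1 and -0.06 in set 4, and leaving out any of 13 libraries ended the call, with adjusted p of 0.0502 to 0.0852. It was 0.04 with offsets and 0.05 with covariates, neither past the test, and with 4 sums against 4 the edgeR adjusted p was 0.212.

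The conjugation system attaches LC3 and GABARAP proteins to lipid, and 5 of its 11 genes rose and 2 fell, against 31.2% and 31.6% of all genes. With offsets 7 were higher and 0 lower, and with covariates 5 and 0. The ATG4 proteases prepare LC3 for coupling and take it off again. Atg4d had 33.5 to 38.0 CPM in control (median 35.5) and 40.3 to 70.0 CPM in verapamil (median 51.7). Each treated library was above each control library, also after the correction for GC content and length. In edgeR the log2 fold change was 0.55 (SE 0.08, edgeR adjusted p = 3.71e-06), from 0.23 in set 1 to 0.85 in set 2, and it was 0.62 with offsets and 0.17 with covariates. Atg4d shares 792 bases with Kri1 on the opposite strand, which is also in the table.

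Atg4b, the gene of the most active of these proteases, had 27.4 to 34.9 CPM in control (median 31.2) and 32.4 to 48.9 CPM in verapamil (median 41.2). In 11 treated libraries it was above all controls, with a log2 fold change of 0.42 (SE 0.06, edgeR adjusted p = 7.85e-06), and 0.21 with covariates. Their relatives stood apart from this: Atg4a fell from 11.1 ± 1.2 to 8.63 ± 2.67 CPM, and Atg4c stood at 14.2 ± 1.3 and 11.9 ± 3.2 CPM and was not called (edgeR adjusted p = 0.07). The log2 fold change of Atg4a was -0.36 (edgeR adjusted p = 0.0344), with 0.06 in set 1, and leaving out any of 5 libraries ended the call, with adjusted p of 0.0546 to 0.0586. It was -0.07 with offsets and 0.16 with covariates, neither past the test. Atg4a-ps is 99.3% identical to Atg4a over 2115 bases, so reads of both are uncertain, and it stood at 1.14 ± 0.69 and 0.99 ± 0.35 CPM, with control values of 0.41 to 3.13 CPM (median 1.06) and treated values of 0.48 to 1.56 CPM (median 0.92).

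Among the other conjugation genes, Atg16l2 and Atg16l1 code for proteins that place the conjugation enzyme on the membrane. Atg16l2 had 1.95 to 4.30 CPM in control (median 3.79) and 2.83 to 6.36 CPM in verapamil (median 4.53), from 27 to 202 reads per library, with a log2 fold change of 0.37 (SE 0.13, edgeR adjusted p = 0.0136), and with 4 sums against 4 the adjusted p was 0.0512. Atg16l1 rose from 12.8 ± 1.0 to 14.3 ± 1.5 CPM (log2 fold change 0.16, edgeR adjusted p = 0.0242), and without the library verapamil 6 its adjusted p was 0.0507. It was 0.44 with offsets, but the call was lost with covariates (0.09, adjusted p = 0.374) and with 4 sums against 4 (adjusted p = 0.0796). Atg5, whose product is joined to ATG12, rose from 13.2 ± 1.8 to 16.4 ± 1.5 CPM (log2 fold change 0.31, edgeR adjusted p = 0.0006), and it was 0.53 with offsets and 0.23 with covariates.

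Atg12, the ubiquitin-like partner of ATG5, moved the other way from a low level. It had 1.70 to 3.13 CPM in control (median 2.52) and 0.60 to 3.04 CPM in verapamil (median 1.98), from 13 to 113 reads per library. Its log2 fold change was -0.44 (SE 0.18, edgeR adjusted p = 0.0348), and leaving out any of 7 libraries ended the call, with adjusted p of 0.0503 to 0.0565. It was -0.08 with offsets and 0.12 with covariates, neither past the test.

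The enzymes of the cascade were not called. Atg3, the E2-like enzyme of LC3 and the most abundant gene of the group, had 94.7 to 109 CPM in control (median 98.9) and 62.5 to 145 CPM in verapamil (median 105), with 3 treated libraries above all controls and 4 below them. Its log2 fold change was 0.03 (edgeR adjusted p = 0.793), but 0.46 with offsets (adjusted p = 5.83e-07) and 0.17 with covariates (adjusted p = 0.0177). Its GC content, 40.1%, is the third lowest of the 46 genes. Atg7, which codes for the E1-like enzyme, had a log2 fold change of 0.14 (28.8 ± 2.6 and 31.8 ± 4.7 CPM, edgeR adjusted p = 0.0891). Atg10, the E2-like enzyme of ATG12, stood at 2.22 ± 0.52 and 2.18 ± 0.37 CPM, and it was called higher with offsets (0.42, edgeR adjusted p = 0.0376).

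The mitophagy genes code for proteins that mark mitochondria for removal, and 2 of 3 fell, where 31.6% of all genes were called lower. Bnip3 and Bnip3l code for related receptors in the outer mitochondrial membrane, both known as targets of hypoxia signalling. Bnip3 had 224 to 291 CPM in control (median 256) and 173.5 to 223 CPM in verapamil (median 202). It was the only one of the 46 genes with all 12 treated libraries below all 12 controls, where 5.18% of all genes were. Against control the log2 fold change was -0.33 (SE 0.05, edgeR adjusted p = 7.97e-06), from -0.43 in set 4 to -0.25 in set 2. With covariates it was -0.38, whereas with offsets it was 0.07 (adjusted p = 0.62) and the groups overlapped.

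Bnip3l, which codes for NIX, had 23.9 to 31.1 CPM in control (median 25.9) and 9.27 to 27.0 CPM in verapamil (median 18.9). In 8 treated libraries it lay below all controls, with a log2 fold change of -0.48 (SE 0.13, edgeR adjusted p = 0.00243). It was -0.10 with offsets and 0.03 with covariates, neither past the test. Bnip3 has 2 near-identical pseudogenes in the table and Bnip3l has 1, which makes their counts uncertain. Pink1, the gene of the kinase that senses damaged mitochondria, stood at 2.01 ± 0.46 and 2.16 ± 0.48 CPM, with log2 ratios of -0.50 in set 1 and 0.67 in set 4.

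Over the 4 sets, 19 of the 22 genes that rose had a positive log2 ratio in every set, and the exceptions were Map1lc3a, Calcoco1 and Atg9a. Of the 12 that fell, 6 had a negative ratio in every set: Pik3r4, Rb1cc1, Tax1bp1, Ulk4, Bnip3 and Bnip3l. The calls came from these same sets, so a shared sign follows in part from how the genes were chosen. The share of all called genes with the same sign in every set was not counted. The median size of the log2 ratio over the 46 genes was 0.35 in set 2 and 0.34 in set 3, and 0.17 in set 1 and 0.21 in set 4. The map of single libraries shows where these differences lie.

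**Figure D4:**
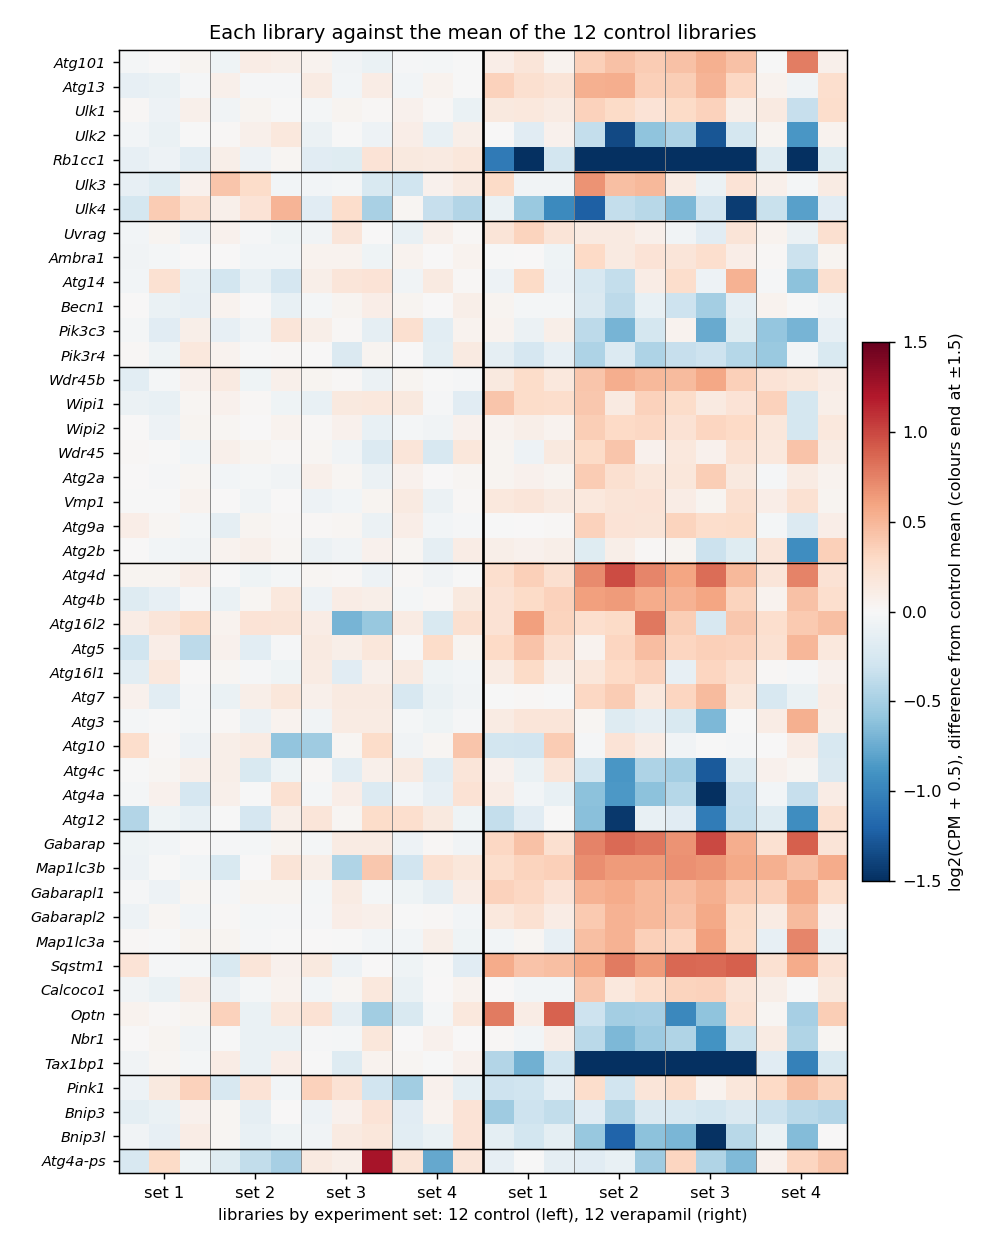
Difference of log2(CPM + 0.5) from the mean of the 12 control libraries (colour, ending at 1.5 on either side) for the 46 autophagy genes (rows, by role in the order ULK complex, related kinases, PI3K complex, lipid transfer, conjugation, LC3 and GABARAP, receptors, mitophagy, Atg4a-ps) in the 24 libraries (columns, by group and experiment set). The LC3 and GABARAP rows other than Map1lc3a are red in all 4 verapamil sets, while Rb1cc1 and Tax1bp1 are darkest in sets 2 and 3.

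Compared per kilobase of the longest annotated transcript, Gabarap stood highest in control with 600 CPM per kb, followed by Sqstm1 with 200 and Gabarapl2 with 159. Map1lc3b stood at 2.90 and Atg12 lowest at 0.53 CPM per kb. In verapamil Gabarap and Sqstm1 reached 911 and 302 CPM per kb. Such levels depend on which transcript is expressed, which was not measured. They also depend on overlapping genes and near-identical copies, such as those of Map1lc3b and Gabarapl2.

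Genes of the pathway outside the symbol rule were read from lists for the steps before and after. Of 35 measured nutrient and energy genes upstream of ULK1, 14 rose and 7 fell, where 31.2% and 31.6% of all genes did. With offsets the counts were 19 and 4 and with covariates 13 and 1. The largest changes were falls of Prkaa2, an AMPK subunit (-0.98), Rragb, a Rag GTPase (-0.94), and Fnip1, a folliculin partner (-0.81). Of these, Rragb fell with both corrections (-0.77 and -0.38). Over the whole list, 9 of the 14 rises and 1 of the 7 falls were called the same way with both corrections. Prkaa2 was -0.39 with offsets (adjusted p = 0.0328) and 0.10 with covariates (adjusted p = 0.64), and Fnip1 was -0.26 with offsets (adjusted p = 0.102) and was called higher with covariates (0.31). Mtor itself stood at 61.9 ± 4.5 and 61.9 ± 9.4 CPM.

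Of 12 transcription factors of autophagy and lysosome genes, 6 (50.0%) rose and 2 (16.7%) fell, against 31.2% and 31.6% of all genes. Both corrections also counted 6 and 2, but only 4 of the 6 rises kept their call in both. Foxo4 lost its call with offsets (0.03, edgeR adjusted p = 0.714) and Tfe3 with covariates (0.15, edgeR adjusted p = 0.0764). Zkscan3, not called without correction (-0.16), was called higher with both (0.15 and 0.14). Atf4, the factor of the integrated stress response, rose from 268.5 ± 11.4 to 653 ± 121 CPM (log2 fold change 1.28, SE 0.08, edgeR adjusted p = 1.9e-12). Its target Ddit3, the gene for CHOP, rose from 14.4 ± 1.6 to 28.5 ± 4.9 CPM (0.99, SE 0.08, edgeR adjusted p = 7.34e-10). Atf4 and Ddit3 kept their calls in both corrections. Mitf, a relative of TFEB, fell from 5.93 ± 0.67 to 2.46 ± 1.24 CPM (-1.25, SE 0.21, edgeR adjusted p = 2.32e-05), and the other fall was in Foxo1 (-0.48). Both also fell with offsets (-0.88 and -0.18) and with covariates (-0.39 and -0.23). Tfeb stood at 10.8 ± 2.2 and 12.8 ± 2.7 CPM and was not called.

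Of 16 measured genes for fusion with the lysosome, 7 (43.8%) rose and 1 (6.25%), Vps41, fell (-0.53), against 31.2% and 31.6% of all genes. With offsets the counts were 9 and 1 and with covariates 7 and 0. Only 3 of the 7 rises, those of Tecpr1, Rab7 and Vps33a, were called higher with both corrections. Stx17, Snap29 and Epg5, not called without correction, were called higher with both. Vps18, a subunit of the HOPS tether, rose by 0.42 on the log2 scale, and Tecpr1, which binds ATG5 on mature autophagosomes, rose by 0.41 with all treated libraries above all controls. Tecpr1 also rose with offsets (0.39) and covariates (0.32), whereas Vps18 was 0.30 with offsets and 0.15 with covariates (adjusted p = 0.169). Vps41 was -0.38 with offsets (adjusted p = 0.0534) and was called higher with covariates (0.18, edgeR adjusted p = 0.0361). Of 6 measured receptors for the endoplasmic reticulum, Tex264 rose (0.45) and Sec62 and Atl3 fell (-0.80 and -0.71). That is 16.7% higher and 33.3% lower, against 31.2% and 31.6% of all genes. Tex264 and Sec62 kept their calls with both corrections (0.17 and 0.16, and -0.45 and -0.18), but Atl3 was -0.14 with offsets (adjusted p = 0.131) and 0.03 with covariates (adjusted p = 0.805).

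Among 5 genes of membrane supply, Ei24 rose (0.15) and Acbd5 and Trappc8 fell (-0.99 and -0.53). Over all genes 31.2% were called higher and 31.6% lower. None of the calls of these 3 genes held in both corrections. Ei24 was 0.02 with offsets and -0.02 with covariates. Acbd5 fell with offsets (-0.50) and was -0.10 with covariates (adjusted p = 0.606). Trappc8 was -0.08 with offsets (adjusted p = 0.419) and was called higher with covariates (0.20, adjusted p = 0.0273).

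Of 10 further mitophagy genes, Phb2, Tomm7, Fkbp8 and Usp30 rose (0.45, 0.44, 0.30 and 0.15), and Usp8, Tbk1, Bcl2l13 and Fundc1 fell (-0.47, -0.45, -0.42 and -0.38). Each direction held 40.0% of the list, against 31.2% higher and 31.6% lower over all genes. The counts of 4 and 4 became 3 and 2 with offsets and 2 and 0 with covariates, and only Phb2 kept its call in both (0.21 and 0.11). With offsets Fkbp8 (0.03), Bcl2l13 (-0.20) and Fundc1 (0.09) were not called. With covariates Tomm7 (-0.03), Fkbp8 (-0.05), Usp30 (0.11), Usp8 (0.09), Bcl2l13 (-0.30) and Fundc1 (-0.08) were not called, and Tbk1, the kinase that activates optineurin and p62, was called higher (0.20). Of 3 measured partners and brakes of the PI3K complex, Bcl2, which binds Beclin 1, and Sh3glb1 fell (-0.49 and -0.16), while Rubcn was not called. That is 66.7% lower, where 31.6% of all genes were called lower. Neither fall held in the corrections. Bcl2 was -0.16 with offsets (adjusted p = 0.179) and was called higher with covariates (0.26, adjusted p = 0.0125), and Sh3glb1 was called higher with offsets (0.40, adjusted p = 3.8e-05) and was 0.09 with covariates (adjusted p = 0.104).

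β-cell markers were present, 10 of 11 listed with a summed level of 3461 to 4539 CPM in control and 3213 to 4010 CPM in verapamil. Of the 10, 5 fell (Ins2, Iapp, Slc2a2, Slc30a8 and Neurod1), 2 rose (Mafa and Nkx2-2) and 3 were not called. Over all genes 31.6% were called lower and 31.2% higher. Both rises and 3 of the 5 falls were called the same way with both corrections. Slc2a2 was -0.195 with offsets (edgeR adjusted p = 0.0935) and Neurod1 was -0.03 with covariates (edgeR adjusted p = 0.636). Pdx1 and Ins1, not called without correction, were called lower with both. Ins2, the most abundant of the 10 markers in control, fell from 1318 ± 160 to 635 ± 116 CPM (log2 fold change -1.05), with all treated libraries below all controls. Mafa rose from 697 ± 42.5 to 1260.0 ± 119 CPM. No acinar (0 of 8) and no leukocyte marker (0 of 5) was among the genes analysed here. Of 5 other endocrine markers only Gcg was measured, at 174 to 198 CPM in control and 176 to 333 CPM in verapamil. The 2 measured of 5 endothelial markers, Kdr and Esam, summed to 14.9 to 19.8 CPM in control and 38.1 to 53.7 CPM in verapamil, and Pecam1, Cdh5 and Tek were not among the genes analysed. Their part in the autophagy results was not tested.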

How the data were processed

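The authors deposited read counts per gene for 24 libraries of MIN6 cells, 12 verapamil and 12 control. Per the labels and the methods, reads were trimmed with Trimmomatic 0.39, aligned to GRCm38 (mm10) with HISAT2 2.1.0 and counted with HTSeq 0.9.1. Whether strand was used in the counting is not stated in the sources used here, and the labels and the methods name different library kits and RNA amounts. Beside the counts the authors deposited 6 columns from their comparison by edgeR, holding p-values with and without adjustment and as log10, the mean log2 CPM and the fold change on the linear (ratio) and log2 scales. None of the 6 was used.

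Groups came from the treatment label, and the experiment set from the first digit of each sample's description, a reading that no source spells out. For C11, C12, V11 and V12 the column name matches a pair of samples, so these 4 libraries had no replicate number, and they belong to set 4 by elimination. No other column of values was left unmapped.

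Counts were normalized by TMM and tested with edgeR 4.0.16 in R 4.3.3 (filterByExpr with a minimum count of 10, quasi-likelihood test, no covariates, Benjamini-Hochberg adjustment over 12306 genes, threshold 0.05). The standard error is the log2 fold change over the root of F. CPM values use the TMM-normalized library size. Dependence on GC content and length was read from the longest GENCODE M21 transcript of each gene. That transcript may not be the one expressed, so lengths, GC contents and offsets of single genes are uncertain. For Wdr45b and Tax1bp1 it has 2 exons, and for Atg16l1 it has 4. The offsets remove splines (4 degrees of freedom each) of each library's log2(CPM + 0.5) difference from the control mean, over 11659 genes with at least 1 CPM, and were centred on the median gene. Since they were fitted to the difference between the groups, they can also take out part of an effect of treatment that goes with GC content or length. The covariates were each library's 2 slopes, which share variance with treatment (variance inflation 2.01). Other tools were DESeq2 1.42.0, Python 3.11.15, pandas 2.3.3, scipy 1.17.1 and matplotlib 3.10.9. The fit was tested on simulated data.

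Each of the 46 genes is named. The lowest, median and highest values are given for Sqstm1, the LC3 and GABARAP genes and, in each other role, up to 4 called genes with the largest change and the most abundant gene by CPM. Of each list of further genes up to 3 called genes at 1 CPM or more are named, and all where 5 or fewer were called. The genes and lists were chosen with earlier results of these data known. The smallest chi-square per degree of freedom between libraries of a group was 5.73, so no library was counted as a repeat. Counts of 12590476 to 44806556 per library leave genes near 1 CPM with few reads. The alternatives tried are given with their effects in the closing section, and those that leave out the verapamil libraries of a set or take sets 1 and 4 alone were added after the data were seen.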

Additional observations from a re-analysis of the deposited data

Results flagged for a closer look

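The effect of verapamil differed between the 4 experiment sets for 2 of the 46 genes, by the edgeR test of the set by treatment interaction. For Tax1bp1 the adjusted p was 0.00507, with log2 ratios of -0.46, -1.98, -1.89 and -0.46 in sets 1 to 4. For Rb1cc1 the adjusted p was 0.0186, with -0.82, -2.93, -2.71 and -0.77. Both fell in every set and fell further in sets 2 and 3, whose verapamil libraries also had the steepest GC trend (r of 0.50 to 0.65 across genes). For these 2 genes the part of that trend was not tested beyond repeating the interaction test with the GC and length offsets. With those offsets 7 of the 46 genes passed the interaction test, where 7.77% of all genes did. Which genes these were is not given here. Groups of 12 libraries were not screened for single outlying values.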

How the results depend on the processing

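DESeq2 size factors, the DESeq2 test and no filter on low counts gave the same 22 higher and 12 lower autophagy genes, and so did a minimum of 1 CPM in 12 libraries, under which 45 genes remained in the test. The replicate numbers do not pair the libraries: the deviations correlated above 0.1 in 2 of 10 numbered pairs, and 1 of 10 was best with its own number. With the replicate number as a block, over the 20 numbered libraries, 22 genes rose and 12 fell, against 29.7% and 31.8% of all genes. Of these, 19 and 11 had the same call in the fit of all 24 libraries. Against that fit Atg16l1, Atg9a, Becn1 and Wdr45 lost their calls and Ambra1, Atg4c, Atg7 and Ulk3 gained one. With the experiment set as a replicate block 24 rose and 13 fell, against 31.3% and 33.1% of all genes. The added calls were those of Atg4c, Atg7 and Ulk3, which were not called with counts summed per set (edgeR adjusted p of 0.233 to 0.27). The numbered libraries without the block gave 23 and 12, against 31.5% and 31.4% of all genes, and the added call there was that of Ambra1.

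Counts summed per set gave 14 higher and 4 lower (2124 genes lower in all). Set 1 alone gave 13 and 2 (1680 and 1721 of all genes), set 2 alone 20 and 13, set 3 alone 13 and 6 (2445 of all genes higher) and set 4 alone 0 and 0 (39 and 11 of all genes), with 5 and 2 autophagy genes at an unadjusted p under 0.05. Sets 1 and 4 alone gave 11 and 2 (1653 and 1482). With offsets 5 genes fell, against 28.2% of all genes, and also 5 with the block of sets, against 29.3%. After the GC and length correction 3 genes were higher and 0 lower without overlap, against 5.08% and 4.73% of all genes. With offsets 7 genes had an interaction, against 7.77% of all genes. With covariates 6 fell (1731 of all genes lower). Leaving out a library, a set or the verapamil libraries of a set gave 13 to 24 genes higher and 6 to 13 lower (2852 to 4117 and 2518 to 4255 of all genes). Single libraries left out gave 20 to 24 and 9 to 13. The cause of these moves was not tested.

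Directions turned for 11 genes with offsets, 11 with offsets and the set block, 12 with covariates and 13 in set 1 alone, of which 4, 5, 3 and 4 were called in neither fit. For genes called in at least 1 of the 2 fits, the turned log2 fold changes were these. With offsets they were Atg10 0.42, Atg2b 0.15, Becn1 0.20, Bnip3 0.069, Calcoco1 -0.051, Map1lc3a -0.053 and Wdr45 -0.073. With offsets and the set block they were Atg2b 0.155, Becn1 0.195, Bnip3 0.024, Calcoco1 -0.051, Map1lc3a -0.054 and Wdr45 -0.073. With covariates they were Atg12 0.12, Atg2b 0.25, Atg4a 0.16, Becn1 0.034, Bnip3l 0.034, Map1lc3a -0.16, Nbr1 0.14, Pik3c3 0.0050 and Ulk2 0.21. In set 1 alone they were Atg12 0.038, Atg4a 0.050, Atg9a -0.036, Becn1 0.046, Calcoco1 -0.020, Map1lc3a -0.074, Nbr1 0.018, Pik3c3 0.048 and Ulk2 0.015. In set 2 alone it was Optn -0.74, in set 4 alone Atg9a -0.055, and in sets 1 and 4 Atg9a -0.041 and Becn1 0.0023.

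A call was gained by leaving out 1 library for Ambra1 (V11), Atg7 (verapamil 10), Ulk3 (control 4), Atg4c (any of 4) and Uvrag (any of 3), with adjusted p of 0.0217 to 0.0454. Depth limits Ulk4, Atg12, Atg16l2, Optn, Pink1 and Atg4a-ps, which had 9 to 230 reads in a library.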
